A study of Mus musculus with 6 samples.

Results

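Autophagy is the route by which a cell encloses its own cytoplasm in a membrane and delivers it to lysosomes, and 38 of its genes are described here: the cargo receptors, the LC3 and GABARAP proteins, and the machinery that builds the vesicle. The genes were chosen by symbol from that machinery, with earlier results of these data known. All 38 were found among the 24054 genes of each deposited table, with 37 under the symbol used here and Rubcn under its older symbol 1700021K19Rik. The samples were bone marrow-derived macrophages, grown in culture from marrow precursors, and their poly(A) RNA was sequenced. The marrow came from wild-type C57BL/6 mice, and every culture was grown for 7 days in medium conditioned by L929 cells. The oxLDL group then received oxidised low-density lipoprotein at 50 µg/ml for 24 hours and the untreated group did not, with 3 samples in each group. The titles number the samples 1 to 3 within each group, and untreated and oxLDL samples of the same number were taken as a pair. What the number marks, and what the word mix in every title means, is not given in the labels.

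As background, a kinase complex built on ULK1 and a lipid kinase complex built on Becn1 and Pik3c3 start the vesicle. ATG2 and ATG9 proteins and the WIPI proteins then supply and mark its membrane. A conjugation system that includes Atg7, Atg3, Atg5, Atg12 and Atg16l1 attaches LC3 and GABARAP proteins to that membrane. Cargo receptors such as Sqstm1, also known as p62, bind ubiquitin-tagged material with a separate part of the same protein that binds LC3, so they hold cargo in the vesicle and are degraded with it. In macrophages the pathway is known for its part in clearing damaged lysosomes, protein aggregates and lipid droplets. RNA levels report how much transcript is present and do not measure how much material passes through the pathway.

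Libraries held 13546572 to 15559310 expected counts each. Levels are given as CPM, which is read counts divided by a scaled library size. Of 9 macrophage markers, 8 were at or above 10 CPM in every sample, Mertk being the exception. The summed level of the 9 was 12959 to 36298 CPM in untreated samples and 9173 to 16154 CPM with oxLDL. Fibroblast and erythroid markers were below 1 CPM in all 6 samples. T cell markers summed to 0 to 0.608 CPM untreated and 0.797 to 2.04 CPM with oxLDL. B cell markers summed to 3.45 to 38.3 CPM untreated and 1.75 to 9.53 CPM with oxLDL. All of the B cell markers except Cd79b were below 1 CPM in all 6 samples. The 6 neutrophil markers with a row summed to 6.76 to 27.7 CPM untreated and 1.13 to 4.496 CPM with oxLDL. Mast cell markers summed to 2.82 to 22.0 CPM untreated and 23.3 to 36.6 CPM with oxLDL, of which only Kit was above 1 CPM. Endothelial markers summed to 39.6 to 77.0 CPM and 21.8 to 35.4 CPM, with Cdh5 and Tek below 1 CPM. Dendritic cell markers summed to 4.10 to 9.05 CPM and 3.29 to 15.7 CPM. The part of these shifts in the results below was not tested.

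The study set oxLDL against no treatment to follow macrophage transcripts under oxidative stress. Of the 38 autophagy genes, 4 rose with oxLDL, 0 fell and 34 did not pass an adjusted p of 0.05. The genes that rose were Gabarapl1, a GABARAP-family protein, Atg16l2, a relative of the conjugation factor Atg16l1, the cargo receptor Calcoco1, and Atg2a, which moves lipid into the growing vesicle membrane. In the same fit 5.89% of the 11400 genes tested were called, 1.91% as higher and 3.98% as lower. Counts by role below rest on few genes each, and no role was tested against that background. The test was edgeR's quasi-likelihood test with the pair number as a block, adjusted by Benjamini-Hochberg over all genes tested, and "rose" and "fell" are used of it throughout. Without the block edgeR called 0 of the 38 and 0% of all genes, with 4 of the 38 and 14.7% of all genes at an unadjusted p under 0.05. Nothing in the labels says that the samples of a group came from separate cultures or mice, so each p-value reflects the spread among these samples alone, which may be technical. In bulk RNA, fewer cells of a type and less RNA per cell cannot be told apart.

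As a set the genes leaned upwards by a small amount. The set was chosen with earlier results of these data known, so the values below describe it and do not test it. The median log2 fold change was 0.23, beside 0.01 over all tested genes, and 29 of 38 values were positive, beside 51.4% of all genes. Within pairs 1, 2 and 3 the median log2 ratio of the set was 0.28, 0.27 and 0.16. The absolute log2 ratio was smaller in pair 3 than in both other pairs for 21 of the 38 genes (55.3%). That share was 48.5% over all tested genes, so a smaller ratio in pair 3 was not particular to the set. The oxLDL value was above the untreated value in all 3 pairs for 23 genes, which is 60.5% of the set, beside 26.6% of all tested genes. It was below in all 3 pairs for 3 genes, or 7.89% of the set, beside 26.5% of all tested genes. Groups did not overlap for 8 genes in the upward direction (background 10.8%) and for 2 in the downward direction (background 10.2%), 10 in all (background 21%).

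Untreated sample 3 differed from untreated samples 1 and 2 in many genes of all kinds, with autophagy genes among them. In untreated sample 3, 10 of the 38 genes (26.3%) were more than 1.5-fold above the mean of untreated samples 1 and 2. More than 1.5-fold below it were 3 genes (7.89%). Over all tested genes these shares were 18.9% and 21.4%. Between untreated samples 1 and 2, 1 gene of the 38 (2.63%) was beyond 1.5-fold in each direction. Over all tested genes, 6.25% were higher and 3.27% lower in untreated sample 2 by that limit. The genes raised in untreated sample 3 were Sqstm1 (5.86-fold), Bnip3 (3.01-fold), Tax1bp1 (2.51-fold), Atg13 (2.19-fold), Atg12, Optn, Wipi1, Map1lc3a, Bnip3l and Vmp1. Those that were lower were Ulk2, at 0.394 times the mean of the other samples, Rubcn and Pik3c3. Each of these ratios compares a single library with a mean over the other untreated libraries and has no test.

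Among the cargo receptors, Sqstm1 stood at 630.5, 671 and 3812 CPM in the untreated samples, in the order of their numbers, and at 1717, 2079 and 5979 CPM in their oxLDL partners. The oxLDL sample was higher in every pair, by 2.72-fold, 3.10-fold and 1.57-fold, yet the groups overlapped because untreated sample 3 stood above oxLDL samples 1 and 2. The log2 fold change was 1.24 ± 0.28 (SE) and missed the threshold (edgeR adjusted p = 0.0714). DESeq2 with the block called it (adjusted p = 4.97e-05), limma-voom with the block called it (adjusted p = 0.0417), and edgeR without the block gave 0.676. In edgeR with the block leaving out pair 1, 2 or 3 gave it an adjusted p of 0.370, 0.397 or 0.0028, and in the last of these fits 29.9% of all genes were called.

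Tax1bp1, a receptor for ubiquitin-tagged aggregates, had a similar arrangement of samples. Its levels were 247, 248 and 621 CPM untreated and 443, 519 and 817 CPM with oxLDL. Pair 3 had the highest untreated level and the smallest ratio, 1.31-fold, beside 1.79-fold and 2.09-fold in pairs 1 and 2. Its fitted value of 0.77 ± 0.19 missed the threshold (edgeR adjusted p = 0.0836, or 0.558 unblocked), while of the other tools with the block DESeq2 called it (adjusted p = 0.00541) and limma-voom did not (adjusted p = 0.0617).

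Calcoco1, a receptor known for degradation of endoplasmic reticulum, was the cargo receptor that rose. It measured 35.2, 45.6 and 28.4 CPM untreated and 68.0, 65.8 and 57.1 CPM with oxLDL. Every oxLDL sample was above every untreated sample, and untreated sample 3 was the lowest of the 6. Its fitted log2 fold change was 0.83 ± 0.14 (edgeR adjusted p = 0.0452, or 0.177 unblocked). Nbr1, a receptor built like Sqstm1, measured 162, 169 and 213 CPM untreated and 238, 230.3 and 241 CPM with oxLDL. The groups did not overlap, but the log2 fold change of 0.39 ± 0.14 did not pass (edgeR adjusted p = 0.155).

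Optn, a receptor of mitochondria and bacteria, was the cargo receptor whose pairs disagreed. It measured 49.1, 21.9 and 63.2 CPM untreated and 32.7, 35.8 and 111 CPM with oxLDL. The oxLDL sample was lower in pair 1 and higher in pairs 2 and 3, and the log2 fold change was 0.32 ± 0.31 (edgeR adjusted p = 0.534). Without pair 3 the fit with the block gave 0.053, and the fit with no block gave -0.39 when oxLDL sample 3 was left out and untreated sample 3 was kept. All 5 cargo receptors had a positive fold change (background 51.4%), and their median was 0.77.

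**Figure D1:**
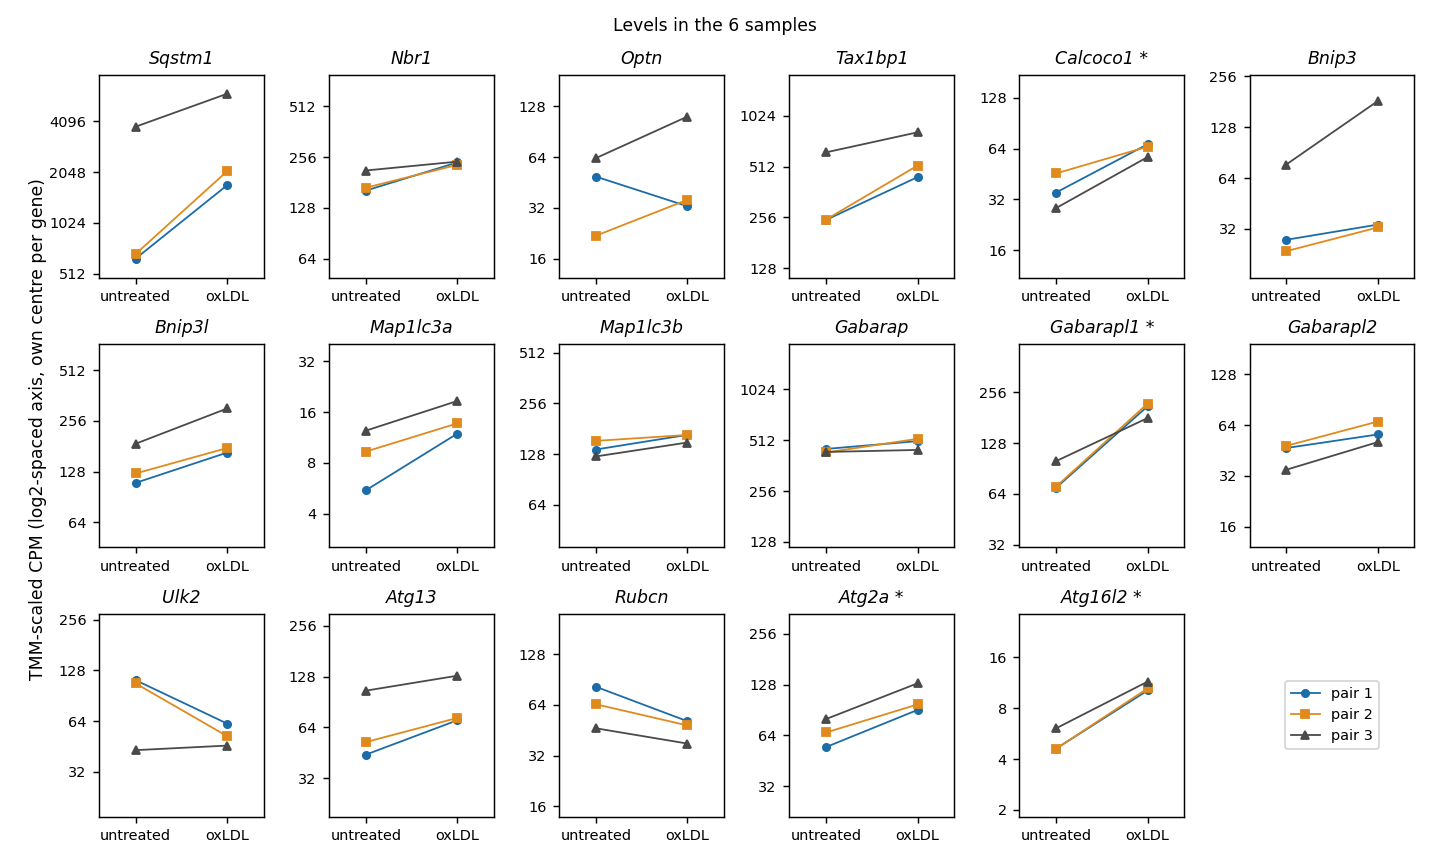
Levels of 17 autophagy genes in untreated and oxLDL samples, as TMM-scaled CPM on a log2-spaced axis with its own centre for each gene; a line joins the untreated and oxLDL samples of a pair, and a star marks genes that rose. Pair 3 lies apart from pairs 1 and 2 for Sqstm1, Tax1bp1, Bnip3 and Atg13, while all 3 lines of Calcoco1, Gabarapl1, Atg2a and Atg16l2 climb to oxLDL samples that lie above every untreated sample.

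Bnip3 and Bnip3l encode receptors in the outer mitochondrial membrane that bind LC3 proteins directly, without ubiquitin. Bnip3l measured 109.9, 125 and 188 CPM untreated and 166, 177 and 304 CPM with oxLDL. Its ratios within pairs were close to each other, 1.51-fold, 1.42-fold and 1.62-fold. Its log2 fold change of 0.60 ± 0.12 missed the threshold in edgeR (adjusted p = 0.0560), and it passed in DESeq2 (0.00535) and limma-voom (0.0448), both with the block. Bnip3 measured 27.5, 23.6 and 76.9 CPM untreated and 33.9, 32.6 and 183 CPM with oxLDL. The oxLDL sample of pair 3 stood far above the rest, with a ratio of 2.38-fold in pair 3 beside 1.23-fold and 1.38-fold. The fitted value of 0.68 ± 0.21 missed the threshold (edgeR adjusted p = 0.118), and it was 0.39 without pair 3. The fit with no block gave -0.37 when oxLDL sample 3 was left out and untreated sample 3, the highest of its group, was kept.

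The LC3 and GABARAP proteins are ubiquitin-like tags that are fixed to the vesicle membrane and bind the receptors. All 5 genes were higher with oxLDL in all 3 pairs (background 26.6%), but they differed in size and 1 of the 5 rose (background 1.91%). Gabarapl1 measured 69.5, 70.6 and 100.01 CPM untreated and 212, 219 and 180.2 CPM with oxLDL. No untreated sample reached an oxLDL sample, and the ratio was 3.04-fold, 3.11-fold and 1.80-fold in pairs 1, 2 and 3. The log2 fold change was 1.36 ± 0.21 (edgeR adjusted p = 0.0396, or 0.0865 unblocked), the largest value among the 38 genes.

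The other members of the family had smaller values that did not pass. Map1lc3a was at a low level, with 5.51, 9.34 and 12.4 CPM untreated and 11.9, 13.7 and 18.6 CPM with oxLDL. Its groups overlapped and its log2 fold change was 0.74 ± 0.18 (edgeR adjusted p = 0.0792). Map1lc3b, the LC3 form most used as a marker of autophagic vesicles, measured 136, 153 and 124 CPM untreated and 167, 166 and 150.05 CPM with oxLDL (log2 fold change 0.23 ± 0.11, edgeR adjusted p = 0.258). Gabarapl2 measured 46.8, 48.2 and 34.8 CPM untreated and 56.4, 67.2 and 50.8 CPM with oxLDL. Its groups did not overlap, and its log2 fold change was 0.43 ± 0.11 (edgeR adjusted p = 0.0827). Gabarap had 455, 433 and 436 CPM untreated and 506, 522 and 448 CPM with oxLDL (0.15 ± 0.15, edgeR adjusted p = 0.527).

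The conjugation system that attaches these tags had 1 gene that rose (background 1.91%) and 7 that did not pass. Atg16l2 measured 4.61, 4.60 and 6.08 CPM untreated and 10.2, 10.5 and 11.5 CPM with oxLDL, so its oxLDL samples were 2.21-fold, 2.28-fold and 1.89-fold above their untreated partners. Its log2 fold change was 1.08 ± 0.17 (edgeR adjusted p = 0.0402, or 0.103 unblocked). Its better-known relative Atg16l1, the scaffold that places the conjugation enzymes on the membrane, had a log2 fold change of -0.03 ± 0.12 with 26.4, 32.5 and 28.2 CPM untreated and 28.1, 27.3 and 29.6 CPM with oxLDL. The E1-like enzyme Atg7 (0.28 ± 0.10), the E2-like enzymes Atg3 (-0.04 ± 0.10) and Atg10 (0.28 ± 0.18), the tag Atg12 (0.21 ± 0.12) and its partner Atg5 (-0.0040 ± 0.11) did not pass. The protease Atg4b, which trims LC3 before conjugation, was lower with oxLDL in pairs 1 and 2 (0.647 and 0.797 times the untreated level) and higher in pair 3 (1.31-fold), and did not pass (-0.19 ± 0.21).

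Among the genes that supply membrane, all 6 log2 fold changes were positive (background 51.4%) and 1 gene rose (background 1.91%). Atg2a measured 54.6, 66.6 and 80.0 CPM untreated and 90.7, 97.7 and 130.4 CPM with oxLDL. The groups did not overlap, and the ratios of 1.66-fold, 1.47-fold and 1.63-fold were close to each other. Its log2 fold change was 0.66 ± 0.11 (edgeR adjusted p = 0.0423, or 0.251 unblocked). Its paralog Atg2b had a value of 0.34 ± 0.12, the lipid-binding WIPI proteins Wipi2 and Wipi1 had 0.35 ± 0.11 and 0.24 ± 0.19, and the scramblases Vmp1 and Atg9a had 0.17 ± 0.13 and 0.08 ± 0.10. None of these 5 passed in edgeR with the block.

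**Figure D2:**
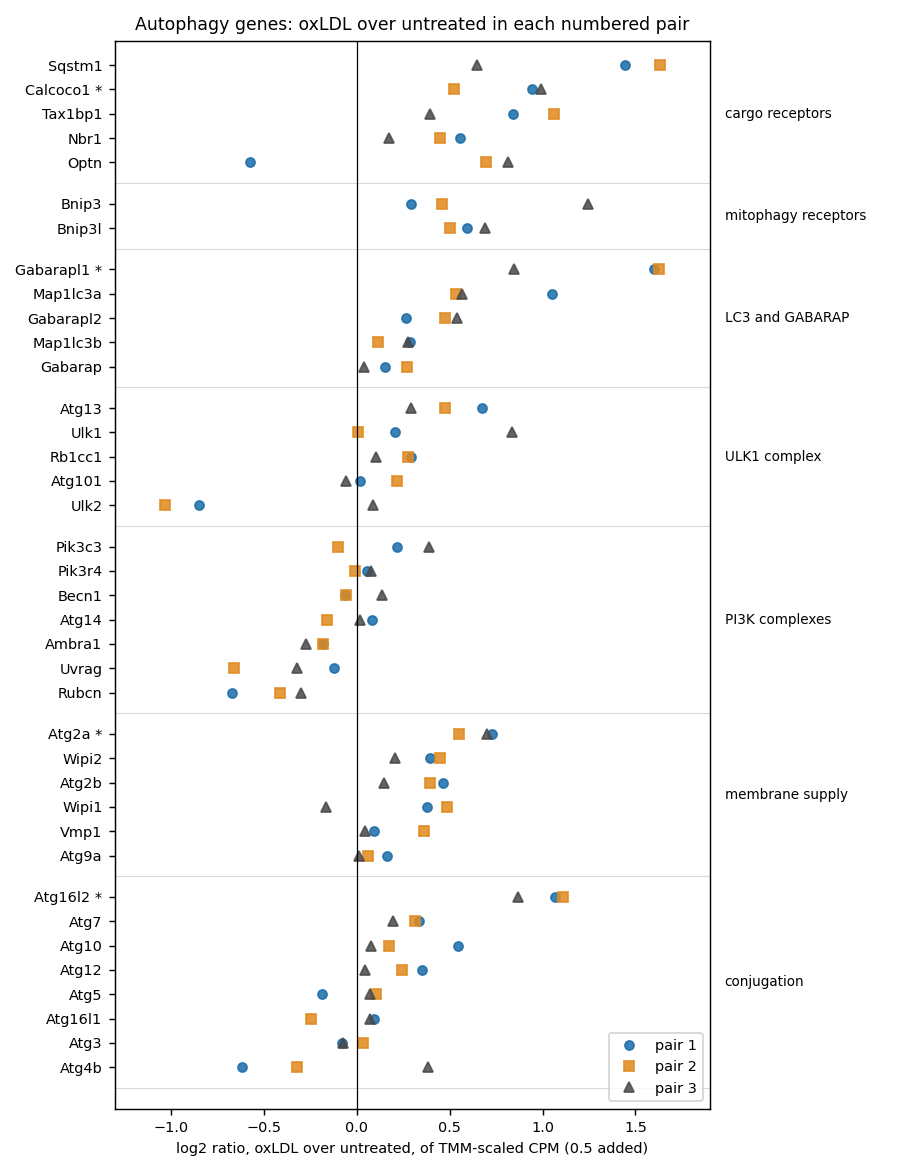
Log2 ratio of TMM-scaled CPM, oxLDL over untreated with 0.5 CPM added, for the 38 genes in each of the 3 numbered pairs, arranged by role; a star marks genes that rose. Points of the LC3 and GABARAP genes and of the mitophagy receptors all lie right of 0, whereas those of the lipid kinase complexes straddle it.

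The kinase complex that starts the vesicle had no gene past the threshold (background 5.89%). Ulk2 had the lowest log2 fold change of the 38 genes, -0.61 ± 0.24 (edgeR adjusted p = 0.188). It measured 112, 107 and 43.0 CPM untreated and 61.8, 52.0 and 45.8 CPM with oxLDL. The treated level was 0.553 and 0.487 times the untreated level in pairs 1 and 2. It was 1.06-fold in pair 3, where the untreated sample was the lowest of its group. In edgeR with the block leaving out pair 1, 2 or 3 gave Ulk2 an adjusted p of 0.569, 0.607 or 0.0047. Its paralog Ulk1 had a value of 0.35 ± 0.18, with the largest ratio in pair 3 (1.80-fold).

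Atg13, the adaptor of that complex, measured 44.1, 52.4 and 106 CPM untreated and 70.6, 72.9 and 130 CPM with oxLDL. It was higher with oxLDL in every pair, and untreated sample 3 stood above oxLDL samples 1 and 2. Its value of 0.48 ± 0.13 missed the threshold (edgeR adjusted p = 0.0878). The scaffold Rb1cc1 (0.22 ± 0.11) and Atg101 (0.06 ± 0.13) did not pass either.

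The genes of the lipid kinase complexes were the role with a median closest to 0, at -0.02, and none of the 7 passed (background 5.89%). Becn1, the regulatory subunit, measured 83.9, 87.2 and 80.2 CPM untreated and 80.3, 83.9 and 88.1 CPM with oxLDL (log2 fold change 0.0047 ± 0.10). Its counts were not whole in any of the 6 samples, so some of its reads were divided between genes. The catalytic subunit Pik3c3 (0.17 ± 0.13), its partner Pik3r4 (0.04 ± 0.10) and the targeting subunit Atg14 (-0.02 ± 0.11) had values near 0 as well. Rubcn inhibits the lipid kinase and is also known for its part in LC3-associated phagocytosis. Rubcn measured 81.9, 64.5 and 46.5 CPM untreated and 51.2, 48.3 and 37.7 CPM with oxLDL. It was lower with oxLDL in every pair while the groups overlapped, at a log2 fold change of -0.47 ± 0.12 that missed the threshold (edgeR adjusted p = 0.0815). Uvrag (-0.37 ± 0.14) and Ambra1 (-0.21 ± 0.10), counted in the same role, were lower with oxLDL in all 3 pairs. Their groups did not overlap, and they did not pass.

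Promoter sequence is shown for the 4 genes that rose and for Bnip3, which did not pass the threshold. The Bnip3 window held an E-box, the windows of the 5 cargo receptors held none, and no window was at hand for Bnip3l. A window of each of Rubcn, Atg3, Atg5 and Atg7 also held an E-box and is not printed. Each window covers the 250 bases before a start site in RefSeq, build GRCm38.p6, printed 5′ to 3′ on the gene's strand, with letters of the motifs searched in capitals. The windows lie at chr6:129532942-129533191 (plus strand) for Gabarapl1, chr7:101302089-101302338 (minus strand) for Atg16l2, chr15:102722179-102722428 (minus strand) for Calcoco1, chr19:6241418-6241667 (plus strand) for Atg2a and chr7:138909507-138909756 (minus strand) for Bnip3.
Gabarapl1: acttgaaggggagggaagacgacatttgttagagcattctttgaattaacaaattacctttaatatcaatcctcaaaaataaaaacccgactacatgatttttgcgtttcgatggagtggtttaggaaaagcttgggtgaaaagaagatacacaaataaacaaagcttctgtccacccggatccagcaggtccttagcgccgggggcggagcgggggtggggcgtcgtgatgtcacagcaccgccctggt
Atg16l2: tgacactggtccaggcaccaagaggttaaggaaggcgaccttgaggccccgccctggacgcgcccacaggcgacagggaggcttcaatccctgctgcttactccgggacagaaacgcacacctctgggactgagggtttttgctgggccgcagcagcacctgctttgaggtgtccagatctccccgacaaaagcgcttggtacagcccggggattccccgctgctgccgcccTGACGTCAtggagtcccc
Calcoco1: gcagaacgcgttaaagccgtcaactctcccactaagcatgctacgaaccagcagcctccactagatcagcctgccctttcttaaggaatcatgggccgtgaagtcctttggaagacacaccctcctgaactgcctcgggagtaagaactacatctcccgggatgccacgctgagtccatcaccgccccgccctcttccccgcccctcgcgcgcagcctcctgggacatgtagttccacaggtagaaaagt
Atg2a: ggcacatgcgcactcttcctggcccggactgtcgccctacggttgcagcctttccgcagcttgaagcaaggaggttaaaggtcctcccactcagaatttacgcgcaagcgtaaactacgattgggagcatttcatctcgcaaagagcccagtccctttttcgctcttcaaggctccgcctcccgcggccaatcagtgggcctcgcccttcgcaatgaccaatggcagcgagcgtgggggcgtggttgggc
Bnip3: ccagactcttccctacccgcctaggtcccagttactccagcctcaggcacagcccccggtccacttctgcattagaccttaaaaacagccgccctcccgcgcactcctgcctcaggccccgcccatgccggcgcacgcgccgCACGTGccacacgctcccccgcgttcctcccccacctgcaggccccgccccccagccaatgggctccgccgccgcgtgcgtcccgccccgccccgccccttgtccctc

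In these windows 6 motifs were searched on both strands: the antioxidant response element core TGACNNNGC, the E-box CACGTG, the hypoxia response element core ACGTG, the FOXO site GTAAACA, the C/EBP-ATF element TGATGNAAT and the cAMP response element TGACGTCA. Every E-box also contains the hypoxia core. Of the 4 genes that rose, Atg16l2 held the cAMP element, and Gabarapl1, Calcoco1 and Atg2a held none of the 6. Bnip3 held the E-box. RefSeq gave 36 windows for 31 of the 38 genes. The antioxidant core was in 6 of the 36 (16.7%, beside 10.2% of all 32851 windows), and the Sqstm1 window held none. Sequence more than 250 bases before a start was not searched, so sites there would not be seen. By gene the antioxidant core was in 4 of 31, Tax1bp1, Ulk2, Atg13 and Vmp1, because several start sites of Vmp1 were counted as windows. The E-box was in 5 windows (13.9%, beside 6.02%), those of Bnip3, Rubcn, Atg3, Atg5 and Atg7, and the hypoxia core in 14 (38.9%, beside 16.6%). The cAMP element was in 1 window (2.78%, beside 1.55%), and the FOXO and C/EBP-ATF letters in 0 (beside 3.17% and 0.816%). Median GC content was 59.4% in the 36 windows and 52.4% in all windows.

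Other genes of the pathway, 66 in 4 lists, are described next, from lists of other core genes, other receptors, fusion genes and nutrient sensing. Of 65 tested, 1 rose and 1 fell, which is 3.08% beside the background of 5.89%, and the median log2 fold change was 0.02. Snap29, a fusion protein that joins autophagosomes to lysosomes, fell (-0.63 ± 0.11, edgeR adjusted p = 0.0497, or 0.494 unblocked). It measured 128, 101 and 52.0 CPM untreated and 77.5, 60.7 and 38.7 CPM with oxLDL, and total-count scaling or no filter on low counts ended its call. Deptor, an inhibitor of mTOR kinase, rose (0.76 ± 0.13, edgeR adjusted p = 0.0485, or 0.750 unblocked). Its levels were 29.7, 33.4 and 4.05 CPM untreated and 58.0, 53.1 and 6.12 CPM with oxLDL, so pair 3 lay far below the other pairs, and 4 of its 6 expected counts were fractional.

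The list of 14 genes counted here as fusion genes had the lowest median of the 4 lists, -0.10. It had 10 negative values, beside 5539 of all 11400 tested genes. Plekhm1, an adaptor of that step, was at -0.52 ± 0.12 and missed the threshold (edgeR adjusted p = 0.0747). Of the 16 other receptors tested, none passed (background 5.89%). The largest values were those of Wdfy3, a scaffold for aggregates (-1.28 ± 0.28, edgeR adjusted p = 0.0698), and the mitochondrial kinase Pink1 (0.64 ± 0.14, edgeR adjusted p = 0.0675). Wdfy3 measured 917, 629.7 and 260.5 CPM untreated and 297, 196 and 184 CPM with oxLDL.

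Among the 12 other core genes none passed (background 5.89%). Tecpr1 (0.95 ± 0.24, edgeR adjusted p = 0.0861) and Wdr45, a WIPI-family protein (0.75 ± 0.14, edgeR adjusted p = 0.0520), had the largest values. The 23 nutrient-sensing genes upstream of ULK1 spanned the widest range. Prkaa2, a catalytic subunit of AMP-activated kinase, measured 2.48, 1.37 and 5.81 CPM untreated and 14.3, 15.5 and 12.7 CPM with oxLDL. Its groups did not overlap, while the log2 fold change, 2.30 ± 0.49, missed the threshold (edgeR adjusted p = 0.0685). Sesn1, a stress-induced inhibitor of mTOR complex signalling, measured 288, 247 and 11.6 CPM untreated and 84.9, 39.0 and 9.03 CPM with oxLDL. Pair 3 was low in both conditions, and the log2 fold change of -1.65 ± 0.46 missed the threshold (edgeR adjusted p = 0.1004).

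**Figure D3:**
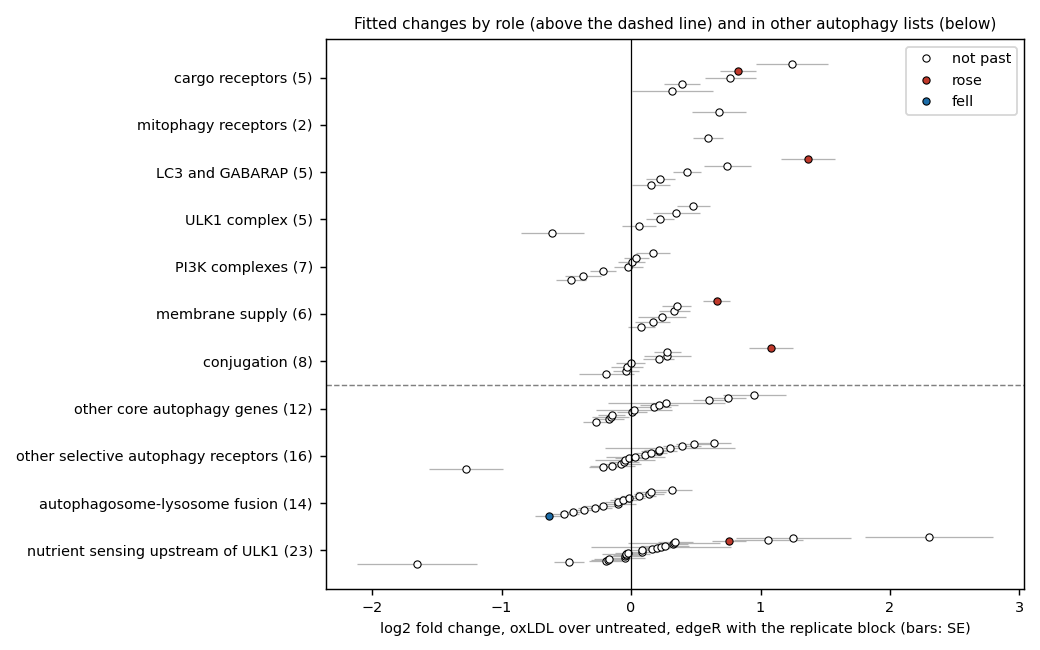
Log2 fold change of each tested gene, oxLDL over untreated, from edgeR with the replicate block, with SE bars; roles of the 38 genes are above the dashed line, the 4 other lists below it, and the number of genes is in brackets. Filled points are genes that rose (red) or fell (blue). Cargo, mitophagy and LC3 or GABARAP genes lie right of 0, and the fusion list lies mostly left of it.

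Leaving out pair 1 or pair 2 ended the 4 calls, and leaving out pair 3 did not. In edgeR with the block the count was 0 of 38 without pair 1 and 0 without pair 2, where 0% of all genes were called. An unadjusted p under 0.05 was reached by 8 of the 38 in each, beside 14.0% and 14.1% of all genes, and the log2 fold changes of the 4 genes lay between 0.61 and 1.23. Without pair 3 it was 15 (background 29.9%), with 12 genes higher (background 14%) and 3 lower (background 15.8%), and the 4 genes were among the 12. With no block and without untreated sample 3 it was 3 (background 6.34%), with Atg16l2 and Gabarapl1 higher (background 2.53%) and Ulk2 lower (background 3.81%). In DESeq2 with the block it was 7 (background 16.3%), all higher (background 6.17%, and 10.1% lower). In limma-voom with the block it was 6 (background 8.42%), all higher (background 2.75%, and 5.67% lower).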

How the data were processed

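Per the submitters' processing notes and the table's own title, the authors deposited expected counts per gene estimated by RSEM 1.2.15, with Bowtie2 2.1.0 also listed. Their second deposited table holds a normalised signal, CPM of library sizes scaled with TMM factors, and 100% of its values were whole reads times a constant (tolerance 0.005). Levels and ratios within pairs come from that table. The notes list hg19, a human build, for mouse samples, and the annotation and strand setting are not given in the sources used here.

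Expected counts were rounded and filtered with filterByExpr (minimum count 10, total 15), leaving 11400 of 24054 genes and all 38 members. The test was edgeR 4.0.16 (R 4.3.3), quasi-likelihood, robust, TMM factors 0.942 to 1.06, with group and replicate number as terms. DESeq2 1.42.0, limma-voom 3.58.1 and other settings were alternatives. Same-numbered samples deviated together from their group means (r = 0.66, 0.45 and 0.70 across genes, limit 0.1), but so did untreated sample 2 with oxLDL sample 1 (0.63, above the 0.45 with its own partner) and untreated sample 1 with oxLDL sample 2 (0.20). The members, lists and blocked fit were chosen with earlier results of these data known. Of the 38 genes, values per sample are given for those past the threshold, all receptors and LC3 or GABARAP genes, and the 12 largest fold changes. In each other list, genes past the threshold and the 2 largest values are named, only some of them with values per sample. Becn1, Atg16l1 and a few per-pair ratios were added after their values were seen. The fit was tested on simulated data.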

Additional observations from a re-analysis of the deposited data

How the results depend on the processing

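The fit with no replicate block called 0 of the 38 genes and 0 of the 65 other pathway genes, beside 0% of all genes. The fit with the block called 4 and 2, beside 5.89% of all genes. DESeq2 with the block called 7 and 12, beside 16.3% of all genes. Scaling to total counts alone moved the median log2 fold change of all tested genes from 0.01 to 0.12 and that of the 38 genes from 0.23 to 0.34. Leaving out a pair, or a single sample with no block, gave 0 to 15 calls among the 38 genes, 0 to 21 among the others, and medians of 0.17 to 0.29. The highest counts, 15 and 21, came without pair 3, where 29.9% of all genes were called. With no block, leaving out untreated sample 3 gave 3 calls, beside 6.34% of all genes, and leaving out any other single sample gave 0. The same 4 genes were called with RLE factors, with no filter, with reads recovered from the CPM table, and were among those called in limma-voom, DESeq2 and with total-count scaling. Total-count scaling changed the sign of Atg14 (0.081), Atg3 (0.064), Atg5 (0.10) and Atg16l1 (0.074), no block that of Atg5 (0.0012), and RLE factors and DESeq2 that of Becn1 (-0.0079 in each). Leave-outs changed a sign in 13 genes: Atg101 (-0.047 to 0.20), Atg12 (-0.070 to 0.55), Atg14 (-0.16 to 0.088), Atg16l1 (-0.11 to 0.079), Atg3 (-0.13 to 0.062), Atg4b (-0.47 to 0.015), Atg5 (-0.18 to 0.14), Becn1 (-0.050 to 0.034), Bnip3 (-0.37 to 1.71), Optn (-0.39 to 0.77), Pik3c3 (-0.029 to 0.33), Pik3r4 (-0.063 to 0.13) and Vmp1 (-0.012 to 0.39). The cause was not tested.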
